A study of Mus musculus with 10 samples.

Results

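The genes described here are 10 that neutrophils use to arm themselves and to sense their surroundings, S100a8, S100a9, Lcn2, Cxcr2, Csf3r, Il1r2, Trem1, Clec4d, Clec4e and Hdc. They were chosen by gene symbol, all 10 were found among the 18603 genes of the count table, and all 10 were among the 15883 that passed a filter on low counts, each with at least that level in all 5 control and all 5 treated tumours. The samples were tumours grown from the mouse renal carcinoma line RENCA under the skin of female Balb/c mice, and sequenced as polyadenylated RNA of the whole tumour. One group of 5 received PBS and the other group of 5 received SLR14, a triphosphate stem-loop RNA that activates the viral RNA sensor RIG-I, in lipid nanoparticles. The RNA and its carrier were given together and no group received empty particles, so effects of the RNA and of the particle cannot be told apart. The mice were randomized at a tumour size of 100 to 150 mm3, injected into the tumour 3 times at intervals of 48 h, and the tumours were taken 24 h after the last injection. Total counts per tumour lay between 17931895 and 39842608, and each gene of the set had between 11 and 3633 counts in each tumour.

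Neutrophils are short-lived white blood cells made in the bone marrow. They enter tissue by following chemokines through the receptor CXCR2, their production depends on G-CSF acting through CSF3R, and they carry antimicrobial proteins in granules and in the cytosol. Several genes of the set are also used by monocytes and macrophages, LCN2 is made by stressed epithelium, S100A8 and S100A9 by inflamed keratinocytes, and HDC by mast cells and basophils. A whole tumour does not separate these sources, and more cells of a type cannot be told apart from more RNA per cell.

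S100a8 and S100a9 are neighbours on chromosome 3 in RefSeq's gene order and lie on opposite strands, whereas Lcn2 lies on chromosome 2. The stretches of 250 bases before the annotated start of these 3 genes are shown because they are the members that passed the test between the groups. They are from RefSeq on GRCm38.p6, an older build than the mm39 named in the submitters' processing notes, and read 5′ to 3′ on the strand of the gene. Capitals mark every match to 5 short motifs searched on both strands, C/EBP as TTNCNNAA, STAT as TTCNNNGAA, NF-kB as GGGANTTCC, the interferon-stimulated response element (ISRE) by its usual consensus of a repeated GAAA and the TATA box as TATAAA.
S100a8, chr3:90668821-90669070, plus strand: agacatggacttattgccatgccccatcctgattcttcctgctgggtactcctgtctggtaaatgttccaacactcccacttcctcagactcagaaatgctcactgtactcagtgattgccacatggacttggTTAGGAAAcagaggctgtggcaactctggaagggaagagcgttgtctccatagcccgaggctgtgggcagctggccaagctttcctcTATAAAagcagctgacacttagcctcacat
S100a9, chr3:90695722-90695971, minus strand: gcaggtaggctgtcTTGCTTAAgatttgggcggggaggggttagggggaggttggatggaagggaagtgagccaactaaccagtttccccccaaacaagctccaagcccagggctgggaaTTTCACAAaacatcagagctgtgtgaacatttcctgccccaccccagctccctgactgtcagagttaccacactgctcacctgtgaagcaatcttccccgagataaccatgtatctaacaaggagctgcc
Lcn2, chr2:32387740-32387989, minus strand: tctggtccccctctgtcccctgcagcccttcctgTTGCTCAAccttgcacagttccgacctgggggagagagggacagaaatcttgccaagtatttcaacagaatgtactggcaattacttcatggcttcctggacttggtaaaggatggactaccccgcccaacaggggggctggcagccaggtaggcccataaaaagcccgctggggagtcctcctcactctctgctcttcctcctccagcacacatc

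Each of the 3 stretches held a match to the C/EBP letters. It was TTAGGAAA for S100a8, beginning at position -117 counted from the start, and TTGCTCAA for Lcn2, beginning at -216. S100a9 had 2 such matches, TTGCTTAA and TTTCACAA. In windows of 300 bases, from 250 before to 50 after the start, 6 of the 10 genes held one (also Trem1, Clec4d and Clec4e). These loose letters occurred in 40.7% of 32851 mouse promoter windows of that length. TATAAA was found in S100a8, S100a9 and Clec4e against 13.6% of all windows, with the S100a9 match beginning at base 1 of the annotated transcript and so outside the stretch shown. STAT letters were found in Il1r2 and Trem1 (8.3% of all windows), response element letters in Clec4d (3.44%) and NF-kB letters in 0 of the 10 (1.68%). No match overlapped one of another motif, and the matches describe letters, not occupied sites.

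After SLR14, the alarmin genes S100a8 and S100a9 and the siderophore-binding Lcn2 rose, 4.33-fold, 6.23-fold and 2.57-fold in the fitted model. The other 7 genes did not pass the test. Among those, Cxcr2, Trem1, Clec4d, Clec4e and Hdc had fitted folds of 1.94 to 2.66, Csf3r had 1.33 and Il1r2 had 0.969. With edgeR's quasi-likelihood test and Benjamini-Hochberg adjustment over all tested genes, 3 of 10 were higher and 0 lower at an adjusted p of 0.05, where 0.674% of all tested genes were higher and 0.29% lower. The log2 fold change was positive for 9 of 10 genes (48.0% of all tested genes) and at least 1 for 7 of 10 (0.982%), with a median of 1.09 beside -0.01 over all tested genes. At an unadjusted p under 0.05, 8 of 10 were higher, against 5.4% of all tested genes. DESeq2 called 7 of 10 higher (1.35% of the 18584 genes it tested), adding Cxcr2, Trem1, Clec4e and Hdc, whereas limma voom called 1 of 10, Lcn2 (0.617%).

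**Figure D1:**
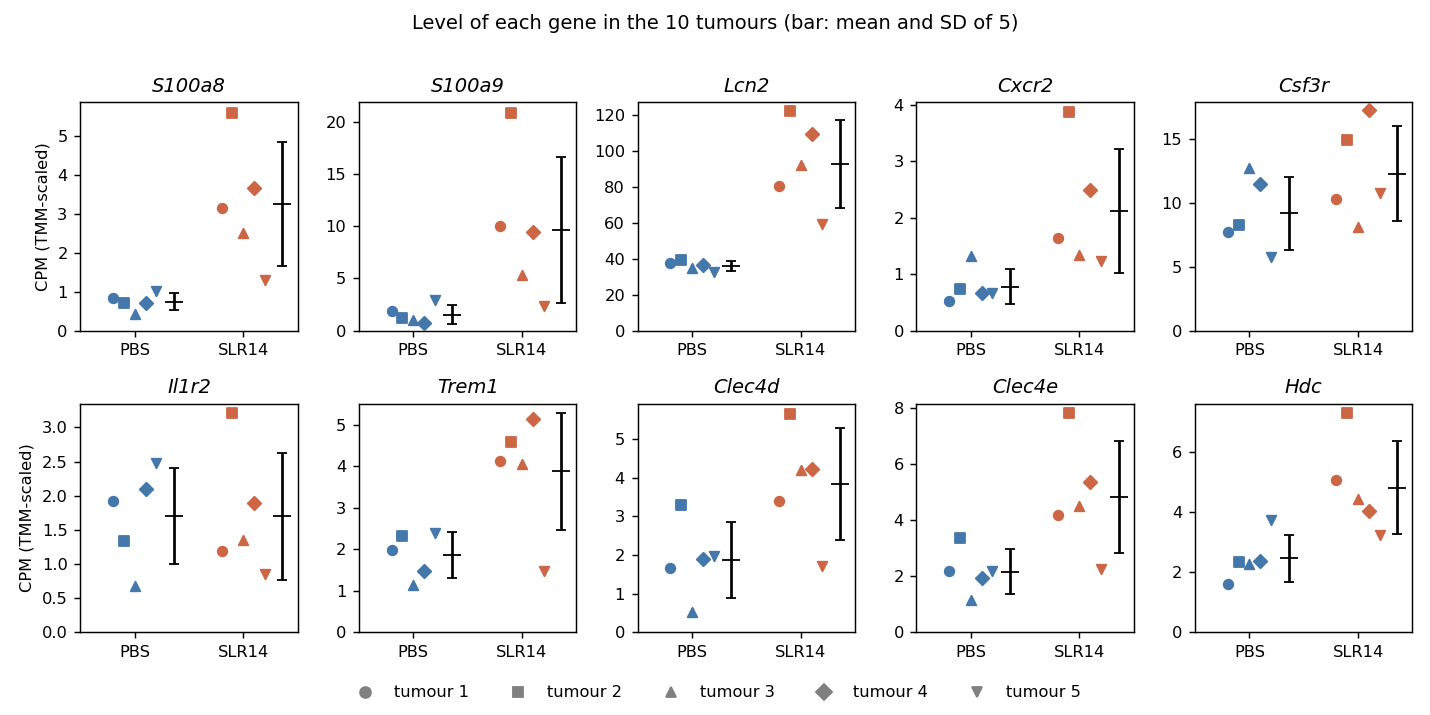
TMM-scaled count level (CPM) of each of the 10 genes on the vertical axis, with the PBS and SLR14 groups on the horizontal axis. Each symbol is 1 tumour, its shape the tumour's number within its group (taken as a name only), and the black bar is the mean and SD of 5 tumours. S100a8 and Lcn2 separate the groups without overlap, Il1r2 does not, and SLR14 tumour 2 (square) is the highest treated tumour in 8 of the 10 panels.

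Calprotectin is the complex of S100A8 and S100A9, calcium-binding proteins that neutrophils store in the cytosol, which bind zinc and manganese and act on Toll-like receptor 4. S100a8 (ENSMUSG00000056054) was at 0.836, 0.698, 0.415, 0.718 and 1.01 CPM in PBS tumours 1 to 5, and at 3.16, 5.595, 2.51, 3.67 and 1.31 CPM in SLR14 tumours 1 to 5. CPM stands for counts divided by the TMM-scaled library size and set to a common total. All 5 treated tumours lay above the highest control tumour, by the least in SLR14 tumour 5. The group means were 0.735 ± 0.217 and 3.25 ± 1.58 CPM (SD, n = 5), and the log2 fold change was 2.11 (SE 0.36, 95% interval 1.34 to 2.89, edgeR adjusted p = 0.0127). The call was missed with limma voom (adjusted p = 0.0521) and held in the edgeR fit without any 1 tumour (largest adjusted p 0.0391).

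S100a9 (ENSMUSG00000056071), the partner that stabilises S100A8, was at 1.88, 1.17, 0.9803, 0.688 and 2.94 CPM in PBS tumours 1 to 5 and at 10.05, 20.8, 5.36, 9.43 and 2.40 CPM in SLR14 tumours 1 to 5. Here the groups overlapped, since SLR14 tumour 5 was below PBS tumour 5, and the other 4 treated tumours were above every control. The means were 1.53 ± 0.902 and 9.61 ± 7.01 CPM (SD, n = 5), with a log2 fold change of 2.64 (SE 0.52, 95% interval 1.52 to 3.76, edgeR adjusted p = 0.0295). This call was the least secure of the 3. Leaving out PBS tumour 1, 2, 3 or 4, or SLR14 tumour 1 or 4, ended it (adjusted p 0.0621 to 0.0844 in edgeR), as did limma voom (adjusted p = 0.135).

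Lcn2 (ENSMUSG00000026822) encodes lipocalin-2, a protein of the specific granules that withholds iron from bacteria by binding their siderophores, and one that epithelial cells also secrete. Its level was 37.5, 39.4, 34.6, 36.2 and 32.3 CPM in PBS tumours 1 to 5 and 80.3, 122, 92.2, 109 and 59.2 CPM in SLR14 tumours 1 to 5. Every treated tumour was above every control tumour. The log2 fold change was 1.36 (SE 0.16, 95% interval 1.01 to 1.71, edgeR adjusted p = 0.00106), and Lcn2 passed in each of 19 alternative fits. Together with S100a8 it made 2 of 10 genes whose treated tumours all exceeded the controls, where 1.92% of all tested genes did so.

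Among the receptors, Cxcr2 (ENSMUSG00000026180), which guides neutrophils toward the chemokines CXCL1, CXCL2 and CXCL5, had the largest fold change. It was at 0.523, 0.730, 1.32, 0.659 and 0.658 CPM in PBS tumours 1 to 5 and at 1.64, 3.87, 1.35, 2.497 and 1.23 CPM in SLR14 tumours 1 to 5. The groups touched only through PBS tumour 3, which lay above SLR14 tumour 5. The log2 fold change of 1.41 (SE 0.36, 95% interval 0.63 to 2.19) did not pass (edgeR adjusted p = 0.111), nor did the value of 1.68 without PBS tumour 3 (edgeR adjusted p = 0.0706), and it passed in DESeq2 (adjusted p = 0.00847).

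Csf3r (ENSMUSG00000028859), the receptor for G-CSF, was at 7.74, 8.25, 12.7, 11.4 and 5.73 CPM in PBS tumours 1 to 5 and at 10.3, 14.9, 8.12, 17.3 and 10.8 CPM in SLR14 tumours 1 to 5. SLR14 tumours 2 and 4 alone exceeded the highest control. Its log2 fold change was 0.41 (SE 0.24, 95% interval -0.10 to 0.92, edgeR adjusted p = 0.562), and this interval includes 0.

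Il1r2 (ENSMUSG00000026073) encodes the decoy receptor that takes up interleukin-1 without signalling. PBS tumours 1 to 5 had 1.92, 1.33, 0.679, 2.10 and 2.48 CPM and SLR14 tumours 1 to 5 had 1.19, 3.21, 1.35, 1.89 and 0.853 CPM. The ranges lay over each other, with the means at 1.70 ± 0.705 and 1.70 ± 0.926 CPM (SD, n = 5). The log2 fold change was -0.05 (SE 0.38, 95% interval -0.87 to 0.78, edgeR adjusted p = 0.971), which leaves changes of either sign within the error. An antisense gene and an unclassified transcript model on the same strand overlap Il1r2 in GENCODE M21, so its counts are uncertain.

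Trem1, Clec4d and Clec4e encode receptors that start inflammatory signals through adaptor proteins, TREM1 through DAP12, and CLEC4D and CLEC4E (MCL and Mincle), which bind a mycobacterial glycolipid, through the Fc receptor gamma chain. Trem1 (ENSMUSG00000042265) was at 1.99, 2.32, 1.13, 1.47 and 2.40 CPM in PBS tumours 1 to 5 and at 4.14, 4.58, 4.06, 5.15 and 1.47 CPM in SLR14 tumours 1 to 5. The other 4 treated tumours stood together above all controls, while SLR14 tumour 5 lay within the control range. The log2 fold change was 1.05 (SE 0.31, 95% interval 0.37 to 1.72, edgeR adjusted p = 0.193), and without SLR14 tumour 5 it was 1.27 and passed (edgeR adjusted p = 0.0248). A processed pseudogene on the other strand overlaps Trem1 in GENCODE M21, and reads of the pair could not be told apart without a stated strand setting.

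Clec4d (ENSMUSG00000030144) and Clec4e (ENSMUSG00000030142) are neighbours on chromosome 6. In PBS tumours 1 to 5 Clec4d was at 1.67, 3.30, 0.528, 1.89 and 1.97 CPM and in SLR14 tumours 1 to 5 at 3.40, 5.65, 4.21, 4.23 and 1.71 CPM. Clec4e was at 2.20, 3.36, 1.13, 1.95 and 2.17 CPM in the controls and at 4.18, 7.80, 4.49, 5.35 and 2.26 CPM after SLR14, in the same order of tumours. In both genes PBS tumour 2 was the highest and PBS tumour 3 the lowest control, and SLR14 tumour 2 the highest and SLR14 tumour 5 the lowest treated tumour. The log2 fold changes were 1.01 for Clec4d (SE 0.39, 95% interval 0.18 to 1.85, edgeR adjusted p = 0.356) and 1.13 for Clec4e (SE 0.32, 95% interval 0.44 to 1.82, edgeR adjusted p = 0.154).

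Hdc (ENSMUSG00000027360) encodes histidine decarboxylase, the enzyme that makes histamine. PBS tumours 1 to 5 had 1.603, 2.35, 2.26, 2.36 and 3.76 CPM, and SLR14 tumours 1 to 5 had 5.09, 7.32, 4.44, 4.03 and 3.25 CPM. PBS tumour 5 was the one control inside the treated range. The log2 fold change was 0.96 (SE 0.25, 95% interval 0.41 to 1.51, edgeR adjusted p = 0.127). It passed without PBS tumour 5 (1.15, edgeR adjusted p = 0.0368) and in DESeq2 (adjusted p = 0.0106).

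**Figure D2:**
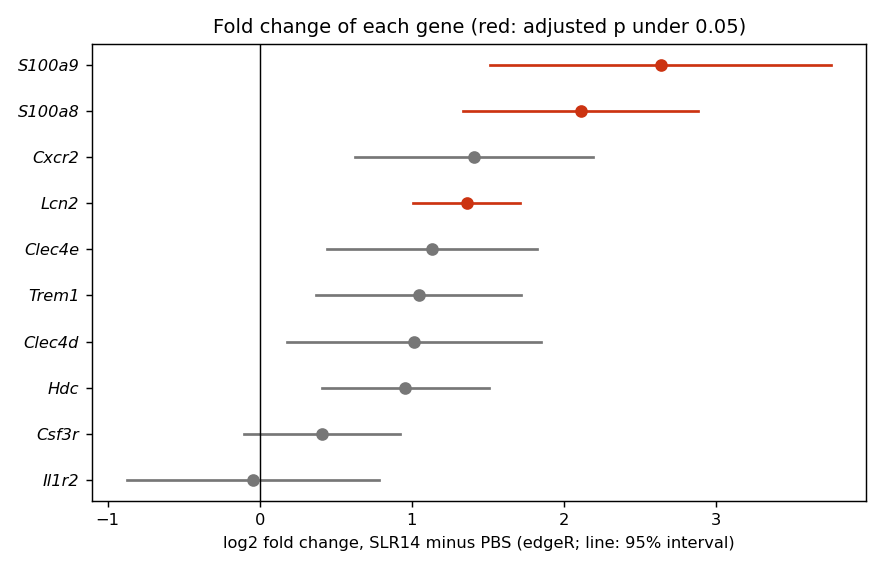
Fitted log2 fold change of SLR14 over PBS tumours on the horizontal axis for each of the 10 genes, with the 95% interval as a line and genes past an adjusted p of 0.05 in red. S100a9, S100a8 and Lcn2 passed, Lcn2 with the shortest interval (1.01 to 1.71), while the intervals of Csf3r and Il1r2 include 0.

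Compared per kilobase of exon (the union of GENCODE M21 exons), the order of the genes differed between the groups. Lcn2 was the most abundant in both, at 13.7 ± 1.03 CPM per kb in controls and 35.3 ± 9.40 CPM per kb in treated tumours (SD, n = 5). S100a9 followed at 2.94 ± 1.73 CPM per kb in PBS, not separable from Csf3r at 2.54 ± 0.791 CPM per kb, which it exceeded in 2 of 5 tumours. After SLR14, S100a9 stood at 18.4 ± 13.4 CPM per kb, above S100a8 (4.68 ± 2.28) in 5 of 5 tumours, and S100a8 was above Csf3r (3.40 ± 1.03) in 4 of 5. In PBS tumours S100a8 was at 1.06 ± 0.313 CPM per kb, below Csf3r. Cxcr2 was the lowest in both groups, at 0.255 ± 0.102 and 0.694 ± 0.361 CPM per kb, and after SLR14 Hdc (0.755 ± 0.242 CPM per kb), the next gene up, exceeded it in 3 of 5 tumours.

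The same treated tumours were at the extremes for most genes of the set. SLR14 tumour 2 was the highest treated tumour for 8 of 10 genes (all but Csf3r and Trem1, highest in SLR14 tumour 4), and SLR14 tumour 5 was the lowest for 9 of 10 (all but Csf3r). Relative to the mean of the treated group, the median gene was at 1.57 in SLR14 tumour 2 and 0.486 in SLR14 tumour 5. Among controls, PBS tumour 5 was the highest for 5 genes and PBS tumour 3 the lowest for 5. SLR14 tumour 2 also had the fewest counts of all tumours, 17931895, and almost no skeletal muscle RNA, with the 6 muscle genes summing to 1.01 CPM against 80.8 to 179 CPM in the other treated tumours. PBS tumour 5, the highest control for 5 genes, stood apart in red cell RNA, with 5 such genes summing to 160.0 CPM against 40.2 to 55.9 CPM in the other controls and 15.9 to 89.0 CPM in treated tumours. Of those 5 genes 0 passed in edgeR or DESeq2, with 1 at an unadjusted p under 0.05. Without these tumours, PBS 5 and SLR14 2, 4 of 10 genes were higher in edgeR, S100a8, S100a9, Lcn2 and Hdc. In the fit on all tumours 0.674% of all tested genes were higher. The share in the reduced fit was not set beside this count, so the gain of Hdc is not read as particular to the set. In SLR14 tumour 5 the keratinocyte genes Krt14, Krt10 and Trp63, 3 of 8 listed, summed to 98.3 CPM, against 0.25 to 0.36 CPM in the other treated tumours, and in PBS tumour 4 they summed to 49.4 CPM against at most 1.36 CPM in the other controls. SLR14 tumour 5 had the lowest S100a8 and S100a9 of its group, and PBS tumour 4 the lowest S100a9 but not the lowest S100a8 of the controls. The part of these cells in the levels of the set was not tested.

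**Figure D3:**
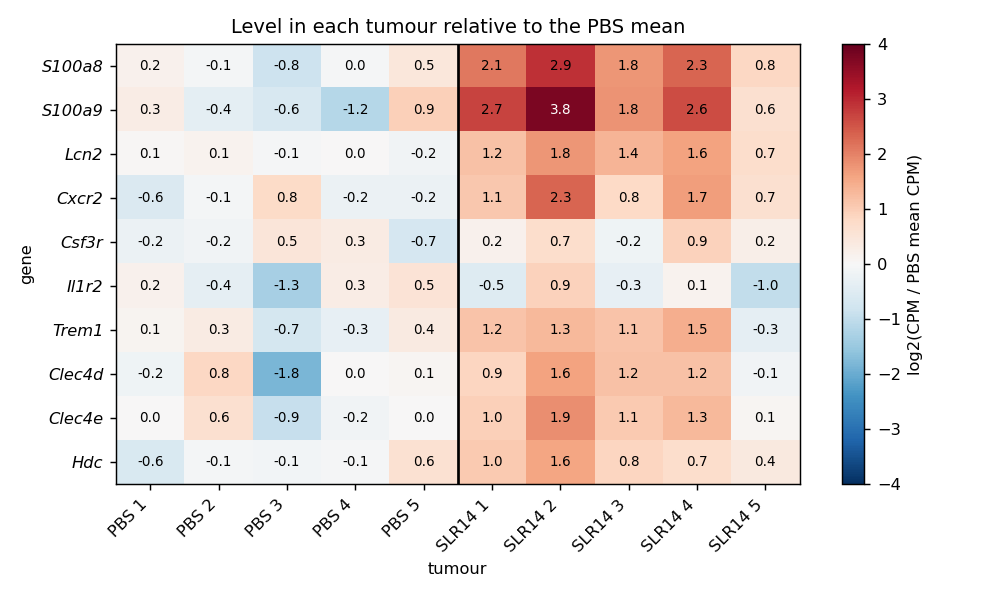
Heat map of log2 of the CPM in each tumour over the PBS mean, with the 10 tumours on the horizontal axis and the 10 genes on the vertical axis, red above and blue below the PBS mean. SLR14 tumour 2 is the darkest red column, and SLR14 tumour 5 holds values below 0 for Il1r2, Trem1 and Clec4d.

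Within-tumour ratios of 2 genes asked whether members moved to different extents. Each is log2 of (CPM + 0.1) over (CPM + 0.1), and was tested two-sided by exact permutation of the tumours (252 assignments, smallest possible p 0.00794), adjusted over 6 ratios. None passed. The ratio of Cxcr2 to Csf3r came nearest, at -3.41 ± 0.389 in control and -2.56 ± 0.412 in treated tumours (SD, n = 5, exact p = 0.0159, adjusted 0.0952), higher than every control in 4 of 5 treated tumours. S100a9 to S100a8 was at 0.846 ± 0.575 and 1.35 ± 0.423 (exact p = 0.159, adjusted 0.190). Lcn2 to S100a8 was at 5.48 ± 0.438 and 4.89 ± 0.391 (exact p = 0.0635, adjusted 0.159), and the sign of its difference turned with a pseudocount of 1 CPM, from -0.58 to 0.08. Clec4d to Clec4e was at -0.309 ± 0.396 and -0.312 ± 0.139 (exact p = 0.992, adjusted 0.992). Csf3r was also set against Ptprc, a gene of all leukocytes (difference 0.47, exact p = 0.119, adjusted 0.179), and against Csf1r, the growth factor receptor of macrophages (difference 0.49, exact p = 0.0794, adjusted 0.159). A p above the threshold with 5 tumours a group does not show that these ratios were alike. The fitted log2 fold change of Csf3r was 0.41 and that of Ptprc -0.06. Other leukocyte genes, named after their values were seen, had -0.14 (Cd53), 0.25 (Laptm5), 0.45 (Coro1a) and 0.47 (Cd52). The difference of Csf3r from leukocyte RNA thus depends on the gene chosen, and ratios to those genes were not tested.

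**Figure D4:**
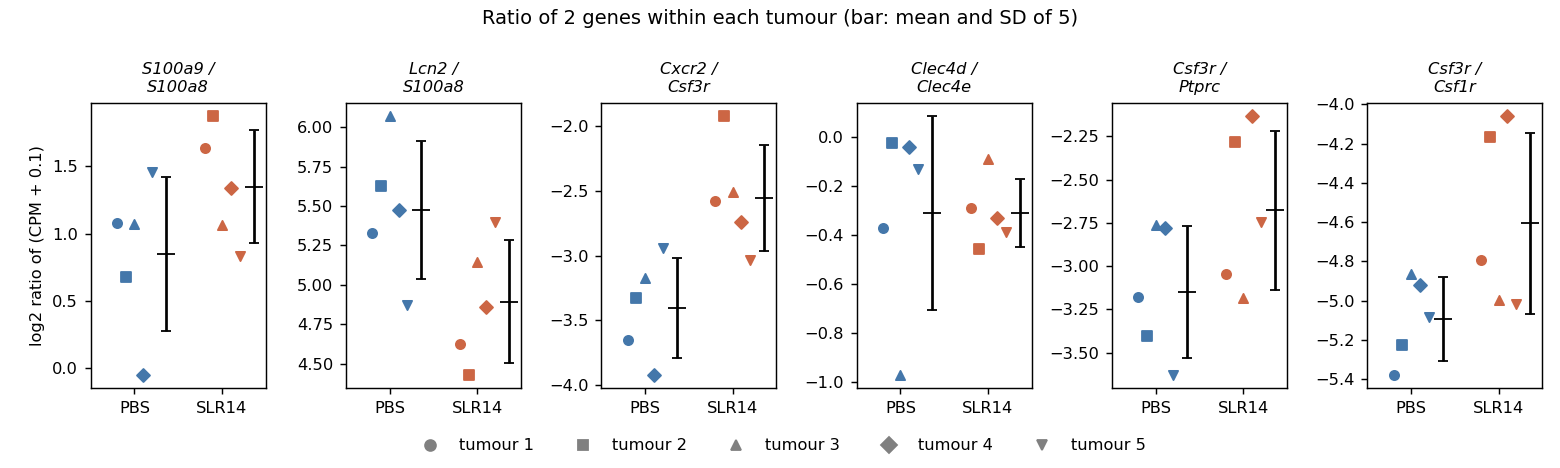
Log2 ratio of 2 genes within each tumour on the vertical axis (CPM + 0.1 for each gene), for 6 pairs, with the PBS and SLR14 groups on the horizontal axis, 1 symbol per tumour and the mean and SD of 5 as a bar. The ratio of Cxcr2 to Csf3r is higher than every control in 4 of 5 treated tumours, and the ratio of Clec4d to Clec4e has nearly the same mean in both groups. The vertical axes differ between panels and do not start at 0.

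Other granule genes were read from lists. Of 16 listed genes of the specific and gelatinase granules 12 were tested, of which 1 rose, 0 fell and 11 did not pass, with a median log2 fold change of 0.67. At an unadjusted p under 0.05 there were 8 of the 12, all higher, against 5.4% of all tested genes. DESeq2 called 5 higher (Mmp8, Cybb, Hp, Pglyrp1 and Cd177, the last 3 named after their values were seen), against 1.35% of all genes. The level of the filter on low counts was 0.373 CPM. Pglyrp1 and Cd177 had controls below it, the lowest at 0.279 and 0.0952 CPM, and Cd177 also SLR14 tumour 1 (0.369 CPM). For 3 of the 12 every treated tumour was above every control, as for 1.92% of all tested genes. The one that rose in edgeR was Mmp8, neutrophil collagenase, at 0.523, 0.539, 0.339, 0.239 and 0.581 CPM in PBS tumours 1 to 5 and 1.39, 4.17, 2.36, 3.62 and 0.933 CPM in SLR14 tumours 1 to 5 (edgeR adjusted p = 0.0138). Its values in PBS tumours 3 and 4 were below the filter level, and all treated values were above it. SLR14 tumours 2 and 5 were again the highest and the lowest treated tumour, and the call was lost with limma voom (adjusted p = 0.0576) and without PBS tumour 3 (edgeR adjusted p = 0.0501). The abundant genes of this list, Lyz2 (951 ± 163 and 977 ± 219 CPM), Slpi (249 ± 50.6 and 339 ± 83.3 CPM) and Cybb, a subunit of the NADPH oxidase (74.9 ± 11.9 and 109 ± 13.3 CPM; SD, n = 5), which macrophages also express, did not pass (edgeR adjusted p = 0.938, 0.373 and 0.0589). Ltf and Ngp, specific granule genes transcribed in immature neutrophils of the marrow, were too low to be tested. Ngp had 0 counts in all 5 PBS tumours, which allows up to 3 counts or 0.0882 to 0.124 CPM a library, and 0.107 to 0.406 CPM in SLR14 tumours. Ltf reached at most 0.180 CPM in controls and 1.01 CPM in treated tumours.

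For primary granules, 3 of 8 listed genes were tested and 1 rose, Ctsc, the protease that activates neutrophil elastase and its relatives, from 200 ± 21.6 to 278 ± 23.0 CPM (SD, n = 5, edgeR adjusted p = 0.0432). Many other cells express Ctsc, and its call was lost with upper-quartile scaling (adjusted p = 0.0731) and when PBS 1, 2, 3 or 4 or SLR14 1, 3, 4 or 5 was left out (adjusted p 0.0582 to 0.148 in edgeR). Prtn3 (3.03 ± 0.565 and 2.24 ± 0.538 CPM) and Serpinb1a (1.47 ± 0.509 and 1.26 ± 0.266 CPM) did not pass (edgeR adjusted p = 0.482 and 0.779). Mpo, Elane and Ctsg were not analysed here.

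Of 32 other neutrophil genes 22 were tested, with 3 that rose, 0 that fell, 19 that did not pass and a median log2 fold change of 0.61. Of these 22, 13 were at an unadjusted p under 0.05, where 5.4% of all tested genes were higher at that level. Among the 13, Pi16, named after its values were seen, was lower (log2 fold change -0.72). DESeq2 called 6 higher (among them G0s2 and Il36g, named after their values were seen), against 1.35% of all genes. G0s2 and Il36g had controls below the filter level of 0.373 CPM, the lowest at 0.210 CPM for each. For 5 of the 22 every treated tumour was above every control, as for 1.92% of all tested genes. Cd300lf, an inhibitory receptor of myeloid cells, went from 3.85 ± 0.6002 to 9.50 ± 2.603 CPM (SD, n = 5, edgeR adjusted p = 0.00730), and Acod1, which makes itaconate in neutrophils and activated macrophages, from 0.690 ± 0.539 to 3.74 ± 1.21 CPM (edgeR adjusted p = 0.0238). Acod1 in PBS tumour 3, at 0.113 CPM, was below the filter level. Asprv1, a protease gene of neutrophils and of the epidermis, went from 1.39 ± 0.786 to 4.75 ± 1.40 CPM (edgeR adjusted p = 0.0242). Its highest control value, 2.72 CPM, was in PBS tumour 4, the control with keratin RNA, while the highest treated value, 6.55 CPM, was in SLR14 tumour 2, which had little. Leaving out PBS 1 or 4, or SLR14 1 or 3, ended the call of Acod1 (adjusted p 0.0507 to 0.0736 in edgeR), and leaving out PBS 1 or 3, SLR14 3 or 4, or PBS 5 and SLR14 2 together ended that of Asprv1 (0.0571 to 0.0757). Abundant genes of this list, S100a11 (89.4 ± 4.17 and 89.3 ± 9.37 CPM), Msrb1 and Slc7a11, did not pass (edgeR adjusted p = 0.995, 0.705 and 0.682). Ly6g and Cxcr1 were not analysed here.

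No tested ligand of CXCR2 or of the interleukin-1 receptors passed the test. The list held no ligand of TREM1, CLEC4D or CLEC4E. Of 9 listed ligands 7 were tested and 0 passed in edgeR or DESeq2, with a median log2 fold change of 0.09. At an unadjusted p under 0.05 there was 1, which was higher, as were 5.4% of all tested genes. For CXCR2, Cxcl1 was at 13.1, 22.5, 11.8, 10.2 and 16.9 CPM in PBS tumours 1 to 5 and at 12.6, 16.1, 12.3, 24.7 and 8.42 CPM in SLR14 tumours 1 to 5 (log2 fold change -0.02, SE 0.27, 95% interval -0.60 to 0.56, edgeR adjusted p = 0.982). Cxcl2 had a log2 fold change of 0.26 (SE 0.28, edgeR adjusted p = 0.740), Cxcl3 of 0.09 (SE 0.25, 0.901) and Cxcl5 of 0.48 (SE 0.45, 0.701), and Ppbp was too low to be tested. For the interleukin-1 decoy, Il1b was at 20.3 ± 7.07 and 19.9 ± 6.50 CPM and Il1a at 1.49 ± 0.309 and 1.39 ± 0.641 CPM (SD, n = 5, edgeR adjusted p = 0.962 and 0.884). Il1rn, the secreted antagonist of the interleukin-1 receptor, was at 12.1 ± 3.41 and 19.3 ± 5.85 CPM (log2 fold change 0.67, 95% interval 0.14 to 1.19, edgeR adjusted p = 0.324). Csf3, which encodes G-CSF, was not analysed here. SLR14 tumour 4 was the highest treated tumour for Cxcl1, Cxcl2, Cxcl3, Cxcl5 and Il1b, and SLR14 tumour 2 for Il1a and Il1rn. SLR14 tumour 5 was the lowest for all tested ligands but Cxcl5, as for 9 of the 10 genes.

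Of 18 partners and adaptors of the receptors and receptors of the secreted products, 16 were tested, 0 rose, 1 fell and 15 did not pass. There were 5, of both signs, at an unadjusted p under 0.05 (5.4% of all tested genes were higher at that level). DESeq2 called 2, Hrh1 and Fcer1g. Hrh1, the gene that fell, is the H1 receptor for histamine, and was at 0.871, 0.889, 0.867, 0.988 and 1.36 CPM in PBS tumours 1 to 5 and at 0.164, 0.476, 0.0254, 0.255 and 0.160 CPM in SLR14 tumours 1 to 5. No treated tumour reached the lowest control (log2 fold change -2.37, SE 0.46, edgeR adjusted p = 0.0270), as for 1.32% of all tested genes. All controls were above the filter level of 0.373 CPM, and of the treated tumours only SLR14 tumour 2 was. Hrh1 was thus tested because of its level in the controls, and its call and lack of overlap are a description only. Leaving out PBS 1, 2, 3 or 4, or SLR14 1, 4 or 5, ended the call (adjusted p 0.0507 to 0.0926 in edgeR). Fcer1g and Tyrobp, the gamma chain and DAP12, were named after their values were seen, at 26.7 ± 1.55 and 34.5 ± 2.27 CPM for Fcer1g (edgeR adjusted p = 0.0598, DESeq2 adjusted p = 0.00215) and 46.7 ± 7.77 and 48.1 ± 2.57 CPM for Tyrobp (SD, n = 5, edgeR adjusted p = 0.902). Every treated tumour was above every control for Fcer1g, and it passed in edgeR without PBS tumour 5 (adjusted p = 0.0421). Clec4n, Card9 and Tlr4, the most abundant of this list, did not pass (edgeR adjusted p = 0.189, 0.886 and 0.613). Clec4n, which encodes Dectin-2 and is the gene next to Clec4d, was at 87.3 ± 19.1 and 58.1 ± 13.7 CPM, the opposite sign to Clec4d and Clec4e.

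None of the 5 tested transcription factors of the granulocyte lineage passed in edgeR or DESeq2. The 1 at an unadjusted p under 0.05 (5.4% of all tested genes were higher at that level) was Cebpd, named after its values were seen (edgeR adjusted p = 0.417). Cebpb, Cebpa and Runx1, the most abundant, were not under it (edgeR adjusted p = 0.496, 0.735 and 0.886). Of 8 tested genes of the acute phase response, which like Lcn2 can be induced by cytokines, 0 passed in edgeR and 1 in DESeq2. Their median log2 fold change was 0.23, and 3 were higher at an unadjusted p under 0.05, against 5.4% of all tested genes. The gene called in DESeq2, named after its values were seen, was Orm1, at 2.97 ± 0.858 and 4.80 ± 0.577 CPM (SD, n = 5, fold 1.62, edgeR adjusted p = 0.164, DESeq2 adjusted p = 0.0247). C3 was at 757 ± 188 and 913 ± 74.7 CPM, Socs3 at 64.8 ± 12.0 and 83.8 ± 19.5 CPM and Nfkbiz at 32.6 ± 6.003 and 37.3 ± 4.11 CPM (SD, n = 5, edgeR adjusted p = 0.576, 0.436 and 0.605).

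Genes of the other cells that could supply these transcripts were read as lists. Of 12 monocyte and macrophage genes 0 passed in edgeR and 1 in DESeq2, and 2 were higher at an unadjusted p under 0.05 (5.4% of all tested genes). The summed level of the 12 was 2017 to 2475 CPM in controls and 1979 to 2414 CPM in treated tumours. The gene called in DESeq2, named after its values were seen, was Ly6c2, a marker of inflammatory monocytes, at 1.88 ± 0.298 and 4.45 ± 2.08 CPM (SD, n = 5, fold 2.34, edgeR adjusted p = 0.239, DESeq2 adjusted p = 0.0491). Of 5 genes of all leukocytes 0 passed in edgeR or DESeq2, with 2 higher at an unadjusted p under 0.05 (5.4% of all tested genes). They summed to 279 to 337 CPM in controls and 327 to 393 CPM in treated tumours. These ranges overlapped only through SLR14 tumour 2, at 327 CPM, and every other treated tumour was above every control. SLR14 tumour 2, the highest treated tumour for most of the 10 genes, was the lowest treated tumour for this sum. This came with Coro1a, at 76.3 CPM there against 115 to 137 CPM in the other treated tumours. Its Laptm5, at 149 CPM, was the highest of all tumours. For 0 of the 5 genes alone was every treated tumour above every control. The sum thus does not show leukocyte RNA separated by group or low in SLR14 tumour 2. Mast cell and basophil RNA was represented by Kit and Gata2 alone, 2 of 10 listed genes, summing to 1.59 to 5.18 CPM and 2.83 to 3.89 CPM, and the defining genes Cpa3, Tpsb2 and Mcpt8 were not analysed here. The 3 eosinophil genes measured summed to at most 0.920 CPM in any tumour. Of 6 epithelial genes of the tumour cells, summing to 2188 to 2840 CPM in controls and 2487 to 3012 CPM in treated tumours, 0 rose and 1 fell, Epcam, from 3.45 ± 1.62 to 0.617 ± 0.502 CPM (SD, n = 5, edgeR adjusted p = 0.0324). Leaving out PBS 1, 3 or 4, SLR14 1, 2, 3 or 4, or PBS 5 and SLR14 2 together ended that call (adjusted p 0.0547 to 0.0936 in edgeR). Epcam in SLR14 tumours 2 and 3, at 0.18 CPM in each, was below the filter level of 0.373 CPM. Every control was above it. Keratins 8 and 18 of the same list did not pass (Krt8 1415 ± 190 and 1606 ± 165 CPM, edgeR adjusted p = 0.594, and Krt18 edgeR adjusted p = 0.763). The part of any of these cell types in the rise of S100a8, S100a9 and Lcn2 was not tested.

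After removal of the group means, genes whose variation among the 10 tumours lay nearest to the average of the set included Gm56633, Vapb, Lgmn, Pira12, Rab6a, Sfr1, Fkbp2, Gls2 and Osm. Their distances between scaled profiles were 0.199 to 0.459, where the median of 13640 genes was 1.42; these distances are a description only. Among the members themselves the distance, which includes the gene's own part in the average, ran from 0.220 for S100a8 to 1.21 for Csf3r, the gene that followed the rest least.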

How the data were processed

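Polyadenylated RNA of 10 tumours was sequenced, 5 per group from 5 mice each, after ribosomal depletion and oligo(dT) selection, per the labels' protocols. Trim Galore 0.6.7, STAR, DESeq2 1.36.0 and mm39 are named in the submitters' processing notes, while the counting program, its annotation and its strand setting were not given in the sources used here. The authors deposited raw counts per gene and a normalized signal, which is those counts divided by 1 factor per tumour. No 2 tumours of a group looked like one library deposited again: for 20 pairs the chi-square statistic was 7.66 to 134 times its degrees of freedom.

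Groups came from the sample titles. Counts were filtered with filterByExpr (minimum count 10, 15883 of 18603 genes kept), scaled by TMM and tested with edgeR 4.0.16 (glmQLFit and glmQLFTest, R 4.3.3) over all 10 tumours with no covariate, adjusted by Benjamini-Hochberg at 0.05. The SE is the absolute log2 fold change over the square root of F. Alternatives used DESeq2 1.42.0, limma 3.58.1, other scalings and filters, and each tumour left out. The fit was tested on simulated data. Ratios were tested by exact permutation with scipy 1.17.1. Promoters of all 10 genes, 1 each, came from RefSeq (GRCm38.p6), leaving chromosome 18 out of the background, and exon lengths came from GENCODE M21.

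The genes, lists, motifs and tests were chosen with earlier results of these data known. Named genes are the 10 members, all ligands, and of each other list the genes past the threshold and the 3 with the highest mean CPM (for lists of other cell types, sums are given in place of most single genes), plus the 10 nearest genes, by Euclidean distance of scaled deviations of log2(CPM + 1) from group means, among genes with a mean of at least 1 CPM. Some genes that would be named are not reported here.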

Additional observations from a re-analysis of the deposited data

Results flagged for a closer look

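Cxcr2 in PBS tumour 3 stood apart from the other controls, at 1.32 CPM against 0.523 to 0.730 CPM, a gap of 0.740 of the group's range where the limit for 5 samples is 0.71. It was the 1 value beyond this limit among 32 groups of 5 examined (10 genes and 6 ratios in each treatment group), and chance alone gives about 1 in 20 groups.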

How the results depend on the processing

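Across 51 results and 942 alternative values, 820 kept their direction and side of the threshold or, for counts of genes, stayed near the main count. Another 58 lost a call or were counts that fell, 14 gained a call or were counts that rose, and 50 changed sign, nearly all of them values close to 0. Ratios permuted only within same-numbered pairs could not pass (smallest possible p 0.0625 in that exact test). Their staying on 1 side is no sign of stability. Genes named outside the 10 members were added to the alternatives after the data were seen. The 153 genes called in edgeR became 407 with DESeq2 (251 higher, 156 lower) and 69 to 194 when 1 tumour was left out (69 for PBS 1, 78 for PBS 3, 77 for SLR14 1, 75 for SLR14 3, 89 for SLR14 4). Members called higher went from 3 to 7 with DESeq2, to 1 with limma voom and to 2 to 4 with 1 tumour left out. Same-numbered tumours did not clearly deviate together (correlations -0.203, 0.109, 0.0212, -0.108 and -0.144). This gave no sign that the numbers pair the tumours, though low correlations cannot exclude it. With the replicate block 78 genes (51 higher, 27 lower) and 1 member, Lcn2, were called. The block ended the edgeR calls of S100a8 (adjusted p = 0.0537), S100a9 (0.123), Mmp8 (0.0686), Cd300lf (0.0552), Ctsc (0.179), Acod1 (0.0705) and Hrh1 (0.0862), and not those of Asprv1 (0.0365) and Epcam (0.0292). The cause of these changes was not tested. Depth limits the members most where counts were lowest, at 11.

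Signs of small values turned as follows. S100a11 moved from -0.00178 to 0.00679 (DESeq2), 0.00163 (DESeq2 size factors), 0.00272 (no filter), 0.00152 (limma on the normalized values) and 0.00549 (without PBS 5 and SLR14 2). Lyz2 was -0.00632, Card9 -0.000394 and Tyrobp -0.000545 with upper-quartile scaling, Il1b was 0.00274 with limma on the normalized values, and Runx1 was -0.113 without PBS 5 and SLR14 2. The difference in the ratio of Clec4d to Clec4e was 0.0169 with a pseudocount of 0.01 CPM and 0.0780 without PBS 5 and SLR14 2, and that of Lcn2 to S100a8 was 0.0817 with a pseudocount of 1 CPM. With 1 tumour left out, log2 fold changes ranged from -0.38 to 0.14 for Il1r2, -0.053 to 0.12 for Lyz2, -0.069 to 0.026 for S100a11, -0.28 to 0.18 for Cxcl1, -0.029 to 0.28 for Cxcl3, -0.33 to 0.049 for Il1a, -0.23 to 0.11 for Il1b, -0.0064 to 0.090 for Card9, -0.090 to 0.19 for Runx1 and -0.025 to 0.11 for Tyrobp, and the Clec4d to Clec4e difference from -0.17 to 0.067.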
